A study of Mus musculus with 21 samples.

Results

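The genes described here make and regulate bone mineral. They are 10 genes taken by name from the expression table: the SIBLING matrix proteins Ibsp, Spp1, Dmp1 and Mepe, the enzymes Alpl, Phospho1, Enpp1, Smpd3 and Phex, and the osteoblast membrane protein gene Ifitm5. All 10 of 10 were found among the 26852 genes of the table, and all 10 passed the filter on low values that left 12976 genes for testing.

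Bone mineral is laid down by osteoblasts and by osteocytes, the osteoblasts that have become enclosed in matrix. Small vesicles that bud from these cells concentrate phosphate, released by phosphatases, until calcium phosphate crystals form and spread along collagen. Acidic phosphoproteins of the SIBLING family bind the crystals and help or restrain their growth, and inorganic pyrophosphate blocks it.

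RNA-seq had been made from mesenchymal cells with low Nestin-GFP signal (Nes-low), sorted by FACS from mouse bone marrow after depletion of hematopoietic cells. The mice were Nestin+ NSG mice, an immunodeficient strain, and were 8 to 12 weeks old when human acute myeloid leukemia cells of the line HL60 or ML1 were given without conditioning. The leukemia cells carried a secreted lipid-permeable mCherry (sLP-mCherry) that enters nearby cells, so that host cells near the leukemia (ch+) can be sorted apart from unlabelled host cells of leukemic mice (ch-). In the study, early means low and late means heavy engraftment of the marrow, and it takes all late cells to be in contact with leukemia. The comparisons ask how the stroma differs between mice without leukemia, both early populations and late disease.

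The ctrl group holds 3 libraries from unengrafted mice. At the early stage there are 3 ch- and 3 ch+ libraries for HL60 and as many for ML1, and at the late stage 3 libraries for each line, sorted without the mCherry marker. Host strain is the same in every group, ctrl included, and the labels give an age only for transplantation. The study's methods give an age range at sampling for all mice together, not by group. The treatment field of the 3 ML1 late libraries reads unengrafted, whereas their titles and time points say late. They are treated as late here, and HL60 late against ctrl is the value without them. The study describes ch+ and ch- cells as sorted from the same marrow. The labels do not pair their libraries by mouse, and they do not say whether replicates are separate mice, so the p-values measure the spread between libraries. The model is limited to human leukemia in mice without lymphoid immunity. One protocol field speaks of CD31+ endothelial cells, whereas the source name says Nes-low mesenchymal cells. On a linear scale of normalized signal, in units of 1000, endothelial markers summed to between 0.189 and 0.448 per library, against 46.2 to 137 for markers of CXCL12-abundant reticular (CAR) and other marrow stromal cells.

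Values are the authors' regularized log2 expression values, and a difference of 1 is a doubling. The table gives no read totals, and the sequencing depth behind each value is therefore not known here. A gene is said to have risen or fallen where limma, fitted over all 21 libraries, gave an adjusted p under 0.1. Comparisons with ctrl share the same 3 ctrl libraries. Pooled comparisons take HL60 and ML1 together, so a difference between the lines at any stage, late included, counts there as spread. For genes that differ between the lines this widens the standard errors, those of early comparisons included. The late libraries also differed in their total: values turned back to a linear scale summed, in units of 1000000, to between 7.26 and 9.02 in late and between 11.86 and 14.23 in ctrl. A single ribosomal RNA gene held 16.81% to 26.17% of that sum in late libraries and 29.72% to 34.24% in ctrl. The part of these differences in the results was not tested. The totals include the 10 osteoblast markers described below. Their summed signal, in units of 1000, was 2250 to 2930 in ctrl, 719 to 902 in HL60 late and 157 to 233 in ML1 late. A rescaling to these totals is therefore not independent of the fall in these markers. Rescaling each library to the same total shifted the median of all genes by 0.71 for late against ctrl, by 0.58 for HL60 late and by 0.84 for ML1 late, and it took the share of called genes that were higher in late from 47.3% to 93.8% (from 47.1% to 93.2% in HL60 late and from 45% to 93.1% in ML1 late). For early cells the same share went from 57.1% to 78.7% between ch+ and ch-, from 55.4% to 66.6% in ch+ against ctrl and from 59% to 41.9% in ch- against ctrl, and between late and ch+ from 44.6% to 93.5%. The members' changes below are relative to the authors' normalization, on which that median was 0.02.

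Per kilobase of exon, on a linear scale, the SIBLING genes Spp1 and Ibsp had the highest levels in ctrl, with means of 9430 (range 8720 to 10400) and 7780 (7390 to 8190). Alpl followed at 1750 (1460 to 1920) and Ifitm5 at 1350 (1140 to 1580), ranges that overlap. Smpd3 at 972, Phospho1 at 907, Phex at 795 and Dmp1 at 603 came next. Their ctrl ranges overlap from each to the next except between Phex, whose lowest library was at 748, and Dmp1, whose highest was at 737. Enpp1 stood at 165 (137 to 210) and Mepe at 44.3 (30.0 to 51.6), each below the range of the gene before it. In ML1 late the order was different: Spp1 was at 11200 per kilobase and Ibsp at 1860, Enpp1 came next at 539, ahead of Alpl at 223, and Phospho1 had the lowest mean at 32.1 (18.9 to 45.2), a range that overlaps those of Mepe (19.7 to 55.1) and Smpd3 (35.7 to 79). In HL60 late Spp1 was at 17600, Ibsp at 4480 and Phospho1 at 229.

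In late disease most of these genes lost expression, and a pair gained it. Against ctrl, 6 of 10 members fell (11.4% of all genes tested fell) and 2 of 10 rose (10.2% of all tested rose). The genes that fell were Ibsp, Phex, Alpl, Phospho1, Smpd3 and Ifitm5, and those that rose were Spp1 and Enpp1. The median change of the members was -1.43, and that of all genes tested was 0.02. With the lines apart, 6 of 10 fell and 2 of 10 rose in HL60 late, where 7.24% of all genes fell and 6.46% rose, with a members' median of -0.86. In ML1 late 7 of 10 fell and 1 of 10 rose, where 12.1% of all genes fell and 9.89% rose, with a members' median of -1.99. These are bulk libraries, so fewer cells that express a gene and less RNA per cell cannot be told apart.

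**Figure D1:**
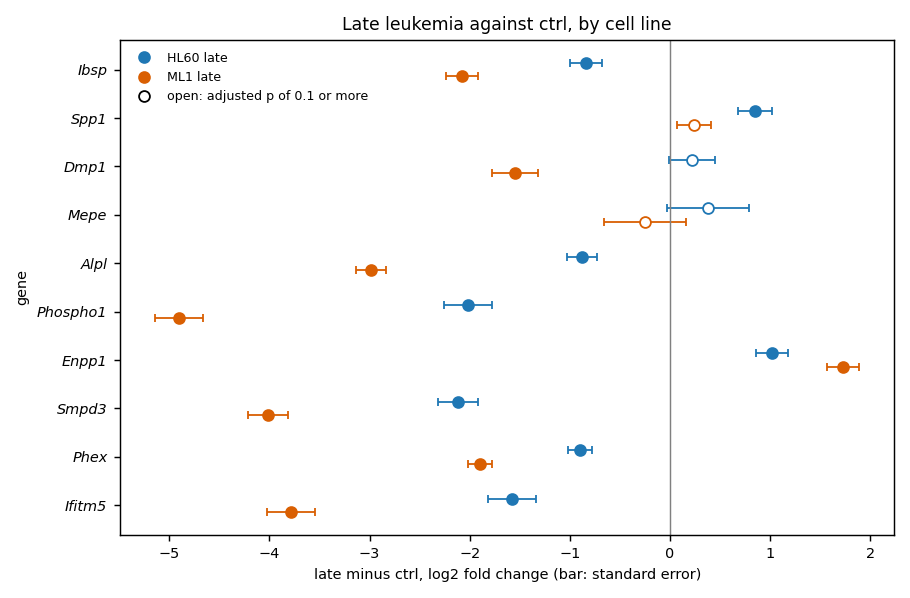
Change of each gene in late leukemia against ctrl, as a log2 fold change on the horizontal axis, with HL60 late in blue and ML1 late in orange (3 libraries each against 3 ctrl). Bars are standard errors from limma, and open circles mark an adjusted p of 0.1 or more. Phospho1 is farthest to the left in ML1 late at -4.90, and Enpp1 and Spp1 lie to the right of 0 in both lines. The sign of the Mepe point in ML1 late depends on the scaling, which turned it from -0.25 to 0.56. The pooled Dmp1 value, which is not drawn here, changed sign as well.

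Ibsp encodes bone sialoprotein, which binds collagen and nucleates crystals. It was at 14.05, 13.90 and 13.97 in ctrl, at 13.17, 13.55 and 12.69 in HL60 late and at 12.16, 11.92 and 11.59 in ML1 late. All 6 late libraries lay below all ctrl libraries, and the ML1 libraries lay below the HL60 libraries. Ibsp changed by -0.84 (SE 0.16, limma adjusted p 0.000411) in HL60 late and by -2.08 (SE 0.16, limma adjusted p 1.67e-11) in ML1 late. After rescaling to library totals the HL60 value was -0.27 (limma adjusted p 0.175) and no longer a call.

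Spp1 encodes osteopontin, a secreted phosphoprotein that binds integrins and CD44 and restrains crystal growth. Its ctrl libraries were at 13.81, 13.88 and 14.07, its HL60 late libraries at 14.75, 15.24 and 14.33 and its ML1 late libraries at 14.41, 14.17 and 13.89. Every HL60 late library was above every ctrl library, while ML1 late replicate 583 lay within the ctrl range. Spp1 rose by 0.85 (1.81-fold, SE 0.17, limma adjusted p 0.000578) in HL60 late. In ML1 late its difference was 0.24 (SE 0.17, limma adjusted p 0.388), and rescaling to library totals gave 1.05, a call. With both lines pooled it rose by 0.55 (1.46-fold, SE 0.20, limma adjusted p 0.0563), higher than every ctrl library in 5 of 6. The pooled call was lost without ctrl replicate 373 (0.49, adjusted p 0.175), ctrl replicate 374 (0.53, 0.149), HL60 late replicate 397 (0.49, 0.102) or HL60 late replicate 398 (0.39, 0.117). An unspliced transcript model, Gm42793, lies within Spp1 on the same strand, so that reads could be split between them. Its mean was 6.61 against 14.02 for Spp1, and its late difference was -0.22 (limma adjusted p 0.744).

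Dmp1 encodes dentin matrix protein 1, a product of osteocytes needed for phosphate balance and osteocyte maturation. It was at 10.69, 10.35 and 10.99 in ctrl, at 10.83, 11.19 and 10.67 in HL60 late and at 9.60, 9.28 and 8.50 in ML1 late. HL60 late overlapped ctrl, and all 3 ML1 late libraries lay below both. Dmp1 fell by 1.55 on the log2 scale (SE 0.23, limma adjusted p 4.66e-06) in ML1 late, and its HL60 late difference was 0.22 (SE 0.23, limma adjusted p 0.658). Pooled, the difference was -0.67 (limma adjusted p 0.219), which became 0.03 after rescaling to library totals. The pooled value did pass the test in the fit by cell line (limma adjusted p 0.0154) and without HL60 late replicate 398 (-0.90, adjusted p 0.051).

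Mepe encodes matrix extracellular phosphoglycoprotein, an osteocyte product whose acidic fragment inhibits mineralization. Its values were 6.43, 6.44 and 5.66 in ctrl, 6.28, 7.13 and 6.25 in HL60 late and 6.18, 6.53 and 5.05 in ML1 late. The 3 groups overlapped, and the late difference was 0.06 (SE 0.36, limma adjusted p 0.943). Its sign turned without ctrl replicate 375 (-0.20) and without HL60 late replicate 398 (-0.12), and in ML1 late (-0.25) without ML1 late replicate 583 (0.18). The family's other gene, Dspp, which acts mainly in teeth, was near the bottom of the scale in these cells, with a mean of -0.26, and was not tested.

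Both phosphatases fell in each line. Phospho1, which frees phosphate from phosphocholine inside matrix vesicles, was at 11.03, 10.75 and 10.73 in ctrl, at 9.28, 8.54 and 8.63 in HL60 late and at 6.52, 5.26 and 6.03 in ML1 late. The 3 groups did not overlap. It fell to 0.247 of ctrl in HL60 late (-2.02, SE 0.24, limma adjusted p 3.78e-07) and to 0.0335 in ML1 late (-4.90, SE 0.24, limma adjusted p 4.79e-16). Alpl, the tissue-nonspecific alkaline phosphatase that splits pyrophosphate outside the cell, was at 12.92, 12.52 and 12.89 in ctrl, at 12.08, 11.92 and 11.70 in HL60 late and at 10.10, 9.47 and 9.80 in ML1 late. Again each group was apart from the next. Alpl fell to 0.543 of ctrl in HL60 late (-0.88, SE 0.15, limma adjusted p 0.000153) and to 0.126 in ML1 late (-2.99, SE 0.15, limma adjusted p 2.57e-15). After rescaling to library totals its HL60 value was -0.31 (limma adjusted p 0.138).

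Smpd3 encodes neutral sphingomyelinase 2, which splits sphingomyelin and so supplies phosphocholine. It was at 12.31, 12.08 and 12.52 in ctrl, at 10.47, 9.84 and 10.22 in HL60 late and at 8.63, 8.69 and 7.55 in ML1 late, with no overlap between groups. It fell to 0.229 of ctrl (-2.12, SE 0.20, limma adjusted p 1.12e-08) in HL60 late and to 0.062 (-4.01, SE 0.20, limma adjusted p 1.67e-15) in ML1 late. Phex, an osteoblast and osteocyte endopeptidase that cleaves SIBLING-derived peptides and whose loss causes X-linked hypophosphatemia, was at 12.29, 12.20 and 12.37 in ctrl, at 11.46, 11.48 and 11.21 in HL60 late and at 10.38, 10.25 and 10.51 in ML1 late. These groups too were apart. Phex changed by -0.90 (SE 0.12, limma adjusted p 2.4e-06) in HL60 late and by -1.90 (SE 0.12, limma adjusted p 1.77e-13) in ML1 late.

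Enpp1 has the opposite activity to Alpl: it makes pyrophosphate from ATP. Enpp1 was at 11.08, 10.45 and 10.57 in ctrl, at 12.01, 11.44 and 11.72 in HL60 late and at 12.53, 12.24 and 12.51 in ML1 late. Its 6 late libraries lay above every ctrl library, ML1 highest. Enpp1 rose 2.03-fold in HL60 late (1.02, SE 0.16, limma adjusted p 3.05e-05) and 3.31-fold in ML1 late (1.73, SE 0.16, limma adjusted p 1.03e-09).

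Ifitm5 encodes a membrane protein of mineralizing osteoblasts that is mutated in osteogenesis imperfecta type V. It was at 10.24, 9.77 and 9.99 in ctrl, at 8.24, 8.94 and 8.10 in HL60 late and at 6.42, 5.98 and 6.28 in ML1 late, so that no group overlapped another. It fell to 0.335 of ctrl in HL60 late (-1.58, SE 0.24, limma adjusted p 2.61e-05) and to 0.0729 in ML1 late (-3.78, SE 0.24, limma adjusted p 3.84e-13).

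The late groups of the 2 lines were then compared with each other. In HL60 late 8 of 10 members were higher than in ML1 late, where 3.16% of all genes tested were higher, and 1 of 10 was lower, where 0.932% of all were lower. The median difference of the members was 1.51, and that of all genes was 0.00. Phospho1 differed most, by 2.88 (SE 0.24, limma adjusted p 4.67e-10), followed by Ifitm5 at 2.20 (SE 0.24, limma adjusted p 1.92e-07) and Alpl at 2.11 (SE 0.15, limma adjusted p 4.47e-11). Smpd3, Dmp1, Ibsp and Phex were between 1.00 and 1.89 higher in HL60 late. Enpp1 was the gene that was lower, by -0.71 (SE 0.16, limma adjusted p 0.00615). The Mepe difference was 0.63 (SE 0.41, limma adjusted p 0.71). Spp1 was 0.62 higher in HL60 late (SE 0.17, limma adjusted p 0.0338), a call that was lost without HL60 late replicate 398 (0.38, adjusted p 0.392) or ML1 late replicate 583 (0.48, adjusted p 0.271) and after rescaling to library totals (0.37, adjusted p 0.262). The share of called genes that were higher in HL60 late went from 77.2% to 37% with that rescaling. The values say how much the late libraries of the lines differ, and for ML1 they rest on the libraries whose treatment field reads unengrafted.

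**Figure D2:**
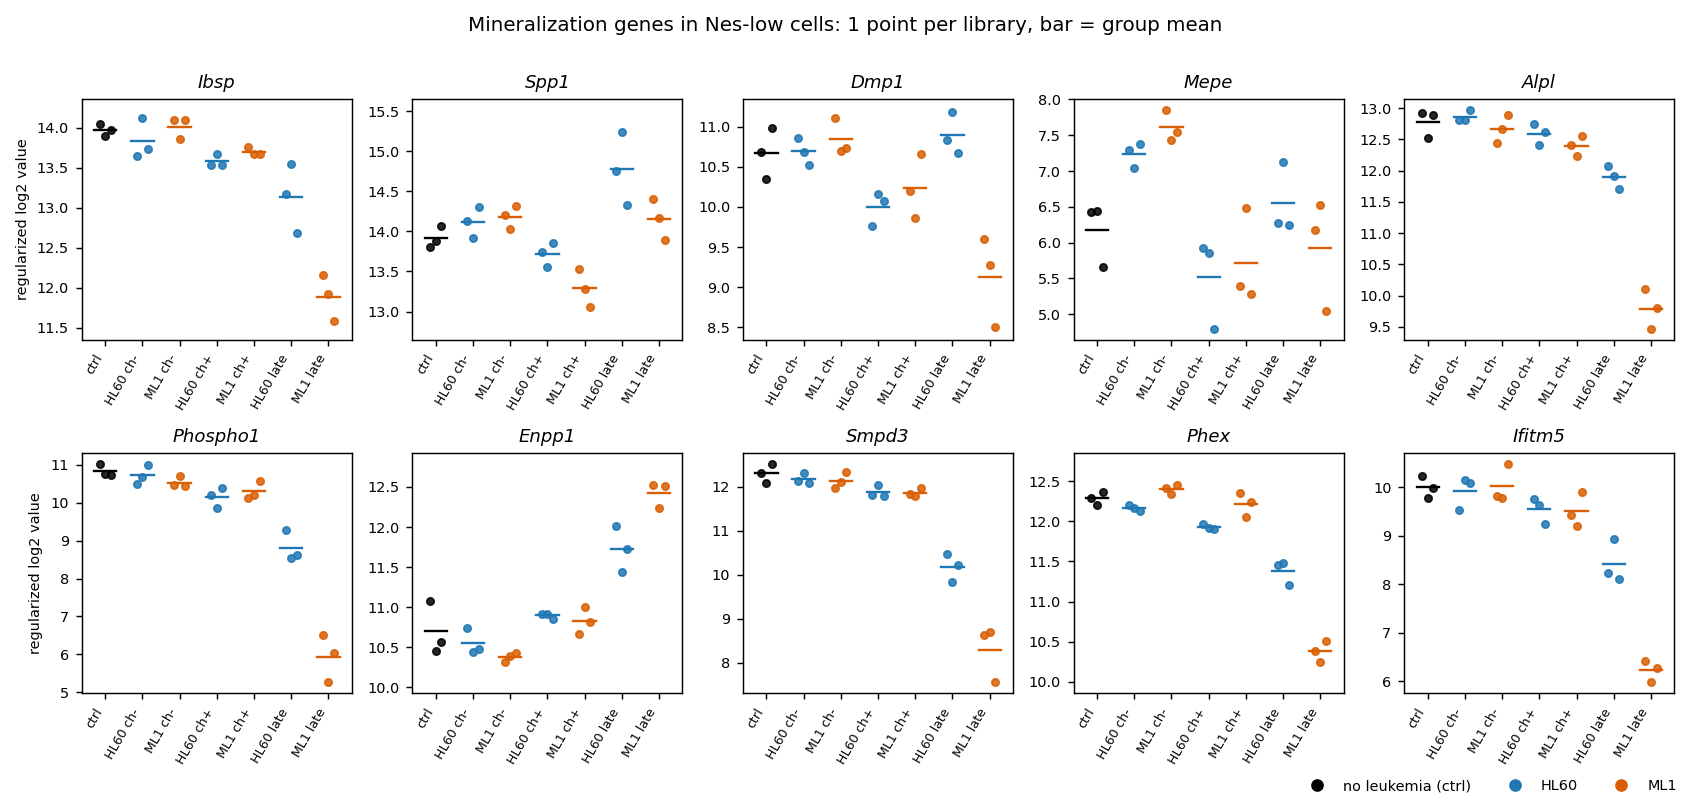
Regularized log2 values of the 10 genes in every library, with 1 panel per gene, 1 point per library and a bar at each group mean of 3 libraries (black ctrl, blue HL60, orange ML1). Mepe is higher in all 6 ch- libraries than in ctrl, and Phospho1, Smpd3 and Ifitm5 have their lowest values in ML1 late.

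At the early stage the members called between labelled and unlabelled cells were the SIBLING genes Mepe and Spp1. Between ch+ and ch- cells 2 of 10 members were lower in ch+ (2.68% of all genes tested were lower) and 0 were higher by limma (3.58% of all were higher), with 4 of 10 at an unadjusted p under 0.05, of which 3 were lower in ch+ (15.4% of all genes had such a p). The members' median was -0.34, against -0.02 for all genes. Mepe was at 5.92, 5.85 and 4.80 in HL60 ch+, against 7.29, 7.04 and 7.38 in HL60 ch-. In ML1 it was at 5.39, 6.48 and 5.28 in ch+ and at 7.85, 7.44 and 7.54 in ch-. Every ch+ library lay below every ch- library in both lines. Mepe was lower in ch+ by a difference of -1.80 (0.286 of ch-, SE 0.30, limma adjusted p 0.000123), with -1.71 (SE 0.41, limma adjusted p 0.0157) in HL60 and -1.89 (SE 0.41, limma adjusted p 0.00598) in ML1. The HL60 call was lost without HL60 ch+ replicate 525 (-1.35, adjusted p 0.136).

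Spp1 was at 13.74, 13.55 and 13.86 in HL60 ch+ and at 14.13, 13.92 and 14.31 in HL60 ch-, and at 13.53, 13.28 and 13.06 in ML1 ch+ and 14.20, 14.03 and 14.32 in ML1 ch-. Labelled and unlabelled libraries did not overlap, and the gap was wider in ML1. Over both lines Spp1 was lower in ch+ by -0.65 (0.639 of ch-, SE 0.16, limma adjusted p 0.0127), a value that quantile normalization brought to -0.40 (adjusted p 0.299). By line the difference was -0.40 in HL60 (SE 0.17, limma adjusted p 0.27) and -0.89 in ML1 (SE 0.17, limma adjusted p 0.00119). The test of HL60 minus ML1 for this step gave 0.48 (SE 0.24, limma adjusted p 0.778), so the lines were not shown to differ.

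Dmp1 was at 9.76, 10.16 and 10.07 in HL60 ch+ and 10.20, 9.86 and 10.66 in ML1 ch+, against 10.86, 10.69 and 10.53 in HL60 ch- and 11.11, 10.70 and 10.73 in ML1 ch-. Only ML1 ch+ replicate 541 reached the ch- range. The pooled difference of -0.65 did not pass the test (SE 0.29, limma adjusted p 0.254), although it did in the fit by cell line (-0.65, adjusted p 0.00958). Enpp1 had the opposite sign at 0.39 (SE 0.15, limma adjusted p 0.158), and the fit by cell line called it as well (adjusted p 0.0303). The other 6 members had differences between -0.44 (Ifitm5) and -0.21 (Phex), none of them called by limma. The count of members called between ch+ and ch- was 4 of 10 with the lines as separate groups, a fit that called 7.72% of all genes, and 7 of 10 with the compared libraries alone, where 6.67% of all genes were called.

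By line, 1 of 10 members was lower in HL60 ch+ than in HL60 ch- (1.66% of all genes tested were lower), and 2 of 10 were lower in ML1 ch+ than in ML1 ch- (1.91% of all). By limma 0 members differed between lines in that step (0.00771% of all genes did in either direction), with 1 of 10, Spp1, at an unadjusted p under 0.05 (6.4% of all genes). Between HL60 ch+ and ML1 ch+ limma called 0 members (0.0154% of all genes), with 2 of 10 at an unadjusted p under 0.05 (7.61% of all), Spp1 at 0.43 and Phex at -0.28. Between HL60 ch- and ML1 ch- it called 0 members (0.0539% of all genes), with 0 of 10 at an unadjusted p under 0.05 (6.82% of all).

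Early cells were also compared with ctrl. In ch+ cells limma called 0 of 10 members (6.17% of all genes tested were called in either direction), with 1 of 10, Spp1, at an unadjusted p under 0.05 (16.8% of all). The differences ran from -0.60 for Phospho1 to 0.16 for Enpp1, with a median of -0.42. All 6 ch+ libraries lay below all ctrl libraries for Ibsp, Phospho1 and Smpd3. The share of all genes tested for which this holds was not counted, so it is not known whether that is unusual. Ibsp ran from 13.53 over a median of 13.67 to 13.76 in ch+, and its lowest ctrl library was at 13.90. The count was 3 of 10 with the lines as separate groups (8.18% of all genes were called) and 5 of 10 with the compared libraries alone (5.97% of all). The pooled fit counts the difference between the late groups of the lines as spread. Phospho1 had an SE of 0.51 here, and of 0.24 in the fit by line (HL60 ch+ against HL60 ch-). For HL60 ch+ limma called 0 members (5.33% of all genes), with 5 of 10 at an unadjusted p under 0.05, all lower (15.6% of all, in either direction). Leaving out ctrl replicate 374 gave 1 call there. For ML1 ch+ 1 of 10 members fell (3.22% of all genes fell), namely Spp1 at -0.63 (0.647 of ctrl, SE 0.17, limma adjusted p 0.024). That call was lost without ctrl replicate 375 (-0.55, adjusted p 0.106) or ML1 ch+ replicate 541 (-0.51, adjusted p 0.133), and the count was 2 without ctrl replicate 374. In HL60 ch+ the Spp1 value was -0.20 (SE 0.17, limma adjusted p 0.61), and quantile normalization gave 0.01.

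In ch- cells 1 of 10 members rose against ctrl (1.13% of all genes tested rose), which was Mepe at 1.25 (2.37-fold, SE 0.36, limma adjusted p 0.0971). Mepe ran from 7.04 over a median of 7.41 to 7.85 in ch-, above all 3 ctrl libraries in 6 of 6. The call was close to the threshold and was lost without any of 8 of the 9 libraries, at values between 0.99 and 1.38, the lowest without ctrl replicate 375 (adjusted p 0.369). By line, 1 of 10 rose in ML1 ch- (1.42% of all genes rose), Mepe again, at 1.43 (2.7-fold, SE 0.41, limma adjusted p 0.0822), and leaving out any library ended that call (values from 1.17 to 1.57). In HL60 ch- limma called 0 members (1.57% of all genes in either direction), with 1 of 10 at an unadjusted p under 0.05 (10.7% of all), again Mepe at 1.06 (SE 0.41, limma adjusted p 0.301). The other 9 members lay between -0.23 (Enpp1) and 0.23 (Spp1) in pooled ch- against ctrl.

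From early labelled cells to late disease, 6 of 10 members were lower in late (10.9% of all genes tested were lower) and 2 of 10 were higher (8.79% of all were higher). The members' median was -1.16, against 0.02 for all genes. Phospho1 was lower by -2.86 (SE 0.42, limma adjusted p 6.45e-06), Smpd3 by -2.64 and Ifitm5 by -2.21, with Alpl, Phex and Ibsp between -1.65 and -1.13. Spp1 ran from 13.06 to 13.86 in ch+ (median 13.54) and from 13.89 to 15.24 in late (median 14.37), without overlap. It was 1.95-fold higher in late than in ch+ (0.96, SE 0.16, limma adjusted p 4.58e-05). Enpp1 was 2.32-fold higher (1.22, SE 0.15, limma adjusted p 3.95e-07). Mepe and Dmp1 did not pass the test, at 0.62 (limma adjusted p 0.183) and -0.11 (limma adjusted p 0.873). The pooled Dmp1 value joins opposite directions by line. In HL60 it ran from 9.76 to 10.16 in ch+ and from 10.67 to 11.19 in late. In ML1 it ran from 9.86 to 10.66 in ch+ and from 8.5 to 9.6 in late. This step was not tested by line. The sign of Dmp1 turned without ML1 late replicate 582 (0.04) or 583 (0.19) and after rescaling to library totals (0.51), and Mepe was called without ML1 ch+ replicate 539 (0.79, adjusted p 0.0743), without ML1 late replicate 583 (0.86, adjusted p 0.0395) and after that rescaling (1.24, adjusted p 0.000851).

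The 4 SIBLING members sit side by side on chromosome 5, all on the plus strand of GRCm38. Dmp1 (ENSMUSG00000029307) is at chr5:104202613-104214102, Ibsp (ENSMUSG00000029306) at chr5:104299171-104311469, Mepe (ENSMUSG00000053863) at chr5:104325329-104338611 and Spp1 (ENSMUSG00000029304) at chr5:104435118-104441050, together 238.4 kb. The window from 150 kb before to 150 kb after holds 16 annotated genes, of which 10 were tested and 6 of these are not members. In late disease these neighbours were not alike. Sparcl1, a secreted protein related to osteonectin that lies on the minus strand beyond Dmp1 and Dspp, fell by 1.66 on the log2 scale (SE 0.25, limma adjusted p 1.5e-05), with -1.17 in HL60 late and -2.16 in ML1 late. Nudt9 (-0.41), Pkd2 (0.31), BC005561 (-0.29), D930016D06Rik (-0.31) and Gm42793 (-0.22) were not called. So within one stretch of chromosome Ibsp and Sparcl1 were lower in late libraries of both lines, Dmp1 was lower in ML1 late, and Spp1 was higher in HL60 late.

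**Figure D3:**
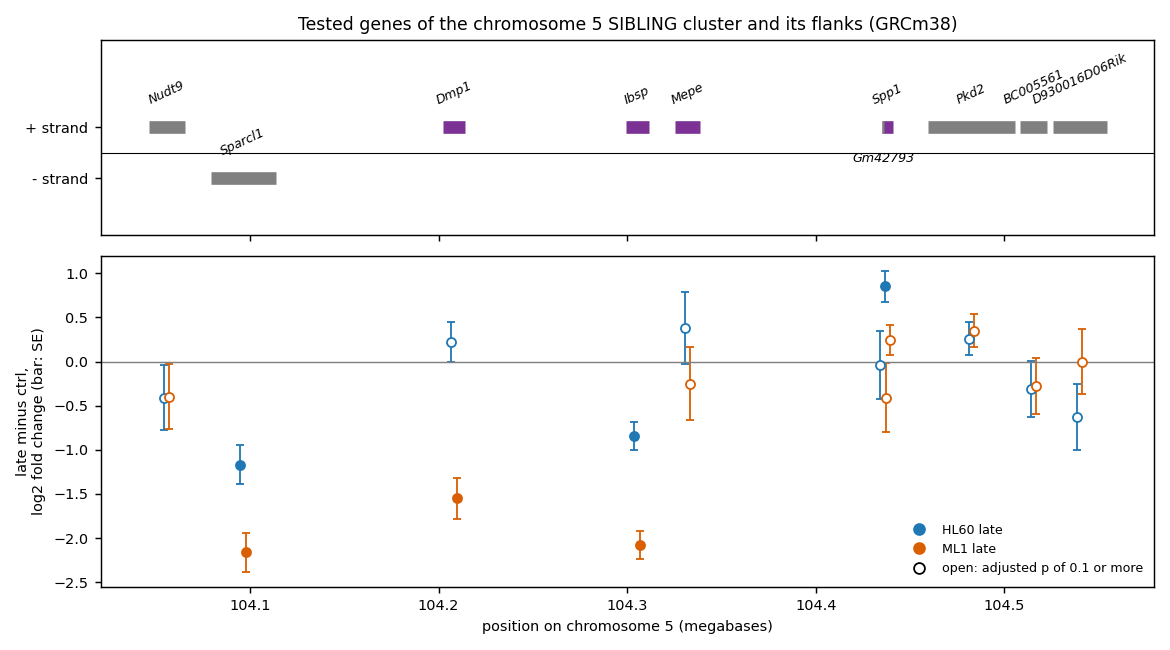
Tested genes around the SIBLING cluster on chromosome 5 (GRCm38, position in megabases), drawn to scale by strand in the upper panel with members in purple. The lower panel gives each gene's late minus ctrl log2 fold change (bars: standard errors, open circles: adjusted p of 0.1 or more) for HL60 late in blue and ML1 late in orange. Ibsp and Sparcl1 lie below 0 in both lines, and Spp1 at 0.85 in HL60 late lies above it. Dmp1 pooled and Mepe in ML1 late change sign when libraries are rescaled to their totals.

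The other members are on other chromosomes: Phex (ENSMUSG00000057457) at chrX:157162075-157415312, Alpl (ENSMUSG00000028766) at chr4:137741733-137796384, Enpp1 (ENSMUSG00000037370) at chr10:24637914-24712159, Smpd3 (ENSMUSG00000031906) at chr8:106252548-106337988 and Ifitm5 (ENSMUSG00000025489) at chr7:140948958-140950291, all on the minus strand. Phospho1 (ENSMUSG00000050860) is at chr11:95824499-95832140 on the plus strand. The Phospho1 locus overlaps Zfp652 on the same strand and Abi3 on the other. Smpd3 overlaps Gm26786 on the same strand and Prmt7 and Gm10629 on the other, Ifitm5 overlaps Gm45717 on the same strand, and Phex overlaps Gm25795 and Gm15172 on the same strand and Gm23798 on the other. Reads of such overlaps could be shared. The study's methods call the reads strand-specific, but whether the kit named in the labels keeps the strand is not known here.

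Other genes of the pathway were read as lists, by their calls in late against ctrl, where 10.2% of all genes tested rose and 11.4% fell. Lists here and below share some genes, such as Pth1r and Dkk1, and some hold members. Their counts are therefore not separate results. Of a list on phosphate and pyrophosphate transport and release 6 genes were tested, and 1 rose and 1 fell. The list also holds Abcc1, an exporter of organic anions, which was the gene that rose, at 0.83 (limma adjusted p 0.0648). The gene that fell was Nt5e, the ectonucleotidase that releases phosphate from AMP, at -0.95 (limma adjusted p 0.0461). The transporters Ank, Slc20a1, Slc20a2 and Xpr1 were not called, and Abcc6 and Slc37a2 were below the filter. Of 7 tested inhibitors of mineralization, 2 rose (Enpp1 and Spp1) and 2 fell. Those that fell were Fetub, of the fetuin family, at -2.10 (limma adjusted p 0.00117) and Dkk1, a Wnt antagonist, at -1.77 (limma adjusted p 0.0015). Ahsg and Sost were below the filter.

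Of 7 tested genes that process or phosphorylate SIBLING proteins, 2 rose and 3 fell. The secretory kinase Fam20c, which phosphorylates them, fell by 1.19 on the log2 scale (limma adjusted p 0.00273) and the convertase Pcsk5 fell by 1.59 (limma adjusted p 4.18e-05). The pseudokinase Fam20a, a partner of Fam20c, rose 2.47-fold (limma adjusted p 5.42e-05) and the lysosomal protease Ctsb 1.52-fold (0.60, limma adjusted p 0.0093). Among 9 osteopontin receptor genes 2 rose and 1 fell. Itga9, an integrin subunit, rose 3.51-fold (1.81, limma adjusted p 2.67e-05), with 1.80 in HL60 late and 1.83 in ML1 late. Itgav was at 0.37 (limma adjusted p 0.071) and Cd44 at -0.39 (limma adjusted p 0.092). The Cd44 fall is smaller than the median shift on rescaling to library totals, so its direction depends on the scaling. Of 6 annexins found in matrix vesicles, 1 rose, Anxa1 at 0.48 (limma adjusted p 0.0596), and the other 5 were not called.

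Osteocyte genes fell as well: 6 of 8 tested were lower in late, with a median of -1.24, and the other 2, Dmp1 and Mepe, were not called. Besides Phex, Dkk1 and Fam20c these were Ackr3, a scavenging receptor for CXCL12, at -1.78 (limma adjusted p 2.43e-06), Pdpn, the podoplanin of early osteocytes, at -1.29 (limma adjusted p 0.0095), and Irx5, a homeobox factor, at -0.67 (limma adjusted p 0.0588). Irx5 fell by less than rescaling to library totals shifted the median of all genes, so its direction depends on the scaling. The defining genes of mature osteocytes, Sost and Fgf23, were below the filter. In phosphate hormone signalling all 4 tested genes fell on the authors' normalization. Pth1r, the parathyroid hormone receptor, was at -1.67 (limma adjusted p 4.22e-07), Galnt3, which protects FGF23 from cleavage, at -1.66 (limma adjusted p 0.00302), Fgfr1 at -0.83 (limma adjusted p 4.14e-05) and the vitamin D receptor Vdr at -0.52 (limma adjusted p 0.092). The pooled Vdr fall is smaller than the median shift on rescaling to library totals, so its direction depends on the scaling. The Fgfr1 fall is only a little larger than that shift. Vdr was at -0.05 in HL60 late (limma adjusted p 0.917) and -0.99 in ML1 late (limma adjusted p 3.13e-05), and HL60 minus ML1 late was 0.94 (limma adjusted p 0.000292).

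The same lists were read in early ch+ against ch- cells, where 3.58% of all genes tested were higher and 2.68% lower. Of the 6 genes of the phosphate and pyrophosphate list, the organic anion exporter Abcc1 was higher at 0.78 (limma adjusted p 0.0735). Nt5e at -0.85 (limma adjusted p 0.0679) and the pyrophosphate exporter Ank at -0.72 (limma adjusted p 0.00564) were lower. Of 7 inhibitors of mineralization 3 were lower, Mepe, Spp1 and Ank. Of 4 phosphate hormone genes 1 was lower, Pth1r at -0.59 (limma adjusted p 0.0261). Of 7 processing genes 2 were higher, Furin at 0.85 (limma adjusted p 1.37e-05) and Ctsb at 0.72 (limma adjusted p 0.00059), and Fam20c was lower at -0.93 (limma adjusted p 0.0115). The 9 osteopontin receptor genes held 3 that were higher in ch+, Itga5 at 0.84, Cd44 at 0.65 and Itgb5 at 0.63, and 1 that was lower, Itga8 at -0.75 (limma adjusted p 0.0151). Spp1 itself was lower in these cells. Anxa1 was 2.52-fold higher (1.33, limma adjusted p 1.59e-07). Of 8 osteocyte genes Mepe and Fam20c were lower and Ackr3 was higher, at 1.35 (limma adjusted p 1.74e-05), the opposite direction to its late value.

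Markers of cell types were read in the same way. Of 10 osteoblast markers 9 fell in late against ctrl, with a median of -2.59. By line 8 fell in HL60 late (median -1.52) and 9 in ML1 late (median -3.65). Their summed normalized signal, in the same units of 1000, was 2250 to 2930 for ctrl, 1910 to 2520 for ch-, 1620 to 1990 for ch+, 719 to 902 for HL60 late and 157 to 233 for ML1 late. Col1a1 was the most abundant, and the lowest, Col13a1, was still at a mean of 7.16. Bglap, which encodes osteocalcin, changed by -2.31 in HL60 late (limma adjusted p 8.02e-12) and by -5.63 in ML1 late (limma adjusted p 4.53e-22), and Runx2, the osteoblast transcription factor, by -0.71 in ML1 late (limma adjusted p 0.000163), with -0.30 (limma adjusted p 0.165) in HL60 late. Both Runx2 values are smaller than the median shifts on rescaling to library totals in their lines, so their direction depends on the scaling. In HL60 late 8 of 10 osteoblast markers were higher than in ML1 late. Against ctrl, limma called 0 of 10 in ch+ and 0 of 10 in ch-, with 1 of 10 at an unadjusted p under 0.05 in each. In the fit by line 7 of 10 were lower in HL60 ch+ than in ctrl (median -0.54) and 5 of 10 in ML1 ch+ (median -0.37). Sparc at -0.65 (limma adjusted p 0.00075) and Col1a1 at -0.57 (limma adjusted p 0.0472) were among the 7, and Sp7 at -0.71 (limma adjusted p 0.0167) and Col1a1 at -0.51 (limma adjusted p 0.073) among the 5. The part of the osteoblast markers in the members' changes was not tested.

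All 12 chondrocyte markers fell in late (median -3.61), and 11 of 12 were already lower in ch+ against ctrl (median -3.99), with 0 of 12 called by limma in ch- and 1 of 12 at an unadjusted p under 0.05. By line all 12 were lower in HL60 ch+ and in ML1 ch+, and 1 was lower in ML1 ch-. Between ch+ and ch- 11 of 12 were lower in ch+ (median -3.14). Their sum was 97.6 to 187 for ctrl, 53.5 to 109 for ch-, 18.4 to 42.8 for ch+, 15 to 24.5 for HL60 late and 3.83 to 5.56 for ML1 late, with Col2a1 most abundant and Col9a2 lowest at 6.81. Of 4 tested hypertrophic chondrocyte markers 3 fell in late and Mmp13 rose by 1.34 (limma adjusted p 8.19e-07). Mmp13 was that list's most abundant gene, and its sum was 7.75 to 10.1 for ctrl, 7.57 to 9.45 for ch-, 5.71 to 7.9 for ch+, 15.7 to 19.4 for HL60 late and 11.8 to 13.4 for ML1 late, and Ihh was lowest at 2.32. In ch+ 3 of 4 were lower than in ch-, Col10a1 at -4.14 (limma adjusted p 3.71e-05), Panx3 at -1.31 (limma adjusted p 0.00419) and Pth1r. The same 3 fell against ctrl, Col10a1 by -3.12, Panx3 by -1.74 and Pth1r by -0.63. CAR and marrow stromal markers moved the other way: 6 of 9 rose in late and 1 fell (median 0.92), and 5 of 9 rose in ch+. In ch- limma called 0 of 9, with 5 of 9 at an unadjusted p under 0.05 (median 0.39). By line 4 of 9 rose in ML1 ch-, Adipoq at 0.84, Ebf3 at 0.81, Kitl at 0.75 and Lepr at 0.57, and 0 of 9 were called by limma in HL60 ch-, with 1 of 9 at an unadjusted p under 0.05. Their sum, led by Cxcl12 with Nes lowest at 7.32, was 46.2 to 71 for ctrl, 48.5 to 92.7 for ch-, 77.4 to 116 for ch+, 112 to 137 for HL60 late and 116 to 133 for ML1 late. The part of these lists was not tested.

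Blood cell markers changed at the early stage. All 7 tested neutrophil markers rose in both ch+ (median 3.32) and ch- (median 3.40), and 6 of 7 red cell markers did (medians 3.60 and 3.39). Between ch+ and ch- limma called 0 of either list, with 0 at an unadjusted p under 0.05. The neutrophil sum, with S100a9 most abundant and Ly6g lowest at 2.03, was 0.0753 to 0.452 for ctrl, 1.15 to 2.48 for ch-, 0.88 to 2.39 for ch+, 0.0631 to 0.0902 for HL60 late and 0.054 to 0.0677 for ML1 late. The red cell sum, with Hbb-bs most abundant, was 0.352 to 0.72 for ctrl, 4.97 to 10.1 for ch-, 4.27 to 12.7 for ch+, 0.0977 to 0.125 for HL60 late and 0.0904 to 0.102 for ML1 late. In late 2 of 7 neutrophil and 5 of 7 red cell markers fell. All 4 tested skeletal muscle markers rose in ch+ and 1 of 4 fell in late. In ch- limma called 0 of 4, with 4 of 4 at an unadjusted p under 0.05 (median 1.61), and by line Mylpf rose in HL60 ch- (2.14, limma adjusted p 0.031). Between pooled ch+ and ch- limma called 0 of 4, with 2 of 4 at an unadjusted p under 0.05. By line, Acta1 (1.86, limma adjusted p 0.0654) and Tnnt3 (1.77, limma adjusted p 0.0929) were higher in ML1 ch+ than in ML1 ch-. In HL60 they were at 0.21 and -0.55 and were not called. The sum of the skeletal muscle list, with Acta1 most abundant and Myh4 lowest at 1.69, was at most 0.521 of these units. Of 6 smooth muscle and pericyte markers 5 were lower in ch+ and 4 in late, and 1 was lower in ML1 ch-. Their sum, with Rgs5 most abundant and Cnn1 lowest at 4.66, was 15.1 to 29.3 for ctrl, 11.1 to 19.9 for ch-, 5.62 to 7.63 for ch+, 10.1 to 10.6 for HL60 late and 7.91 to 9.02 for ML1 late. The part of these lists was not tested.

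Spp1 is also made by osteoclasts and macrophages. Per the study's methods, blood cells were excluded by CD45 selection, and the remaining cells were stained for CD45 and Ter119 before the sort. Of 5 tested osteoclast markers 1 rose in late, Mmp9 at 2.24-fold (limma adjusted p 0.0634), and 1 fell, Atp6v0d2 at 0.406 of ctrl (limma adjusted p 0.0156). Mmp9 rose in ML1 late, by 2.12 (limma adjusted p 2.74e-05), and was at 0.21 in HL60 late (limma adjusted p 0.81), and HL60 minus ML1 late was -1.92 (limma adjusted p 0.000528). In ML1 late 3 of 5 osteoclast markers fell, Acp5 at -1.52, Atp6v0d2 at -1.47 and Ctsk at -0.75. The Ctsk fall is smaller than the median shift on rescaling to library totals in ML1 late, so its direction depends on the scaling. At the early stage Atp6v0d2 was higher in ch+ than in ch- by 2.56 (limma adjusted p 1.12e-06), and it fell in ch- against ctrl (-1.51, limma adjusted p 0.0395). By line, Mmp9 was higher in HL60 ch+ than in HL60 ch- (1.15, limma adjusted p 0.0769), with 0.73 (limma adjusted p 0.343) in ML1. The osteoclast sum was 0.731 to 0.773 for ctrl, 0.511 to 1.1 for ch-, 0.701 to 1.06 for ch+, 0.714 to 0.86 for HL60 late and 0.946 to 1.41 for ML1 late. It was led by Ctsk, with Oscar at the floor (-2.32). Only 2 of 8 macrophage markers were tested, and 1 fell. Their sum, led by Mertk, was 0.416 to 0.621 for ctrl, 0.379 to 0.701 for ch-, 0.288 to 0.806 for ch+, 0.298 to 0.45 for HL60 late and 0.218 to 0.278 for ML1 late, with Vsig4 at the floor (-2.26). Of 7 endothelial markers limma called 0 in late, with 1 of 7 at an unadjusted p under 0.05, and 0 in ch+ and in ch- against ctrl, with 0 of 7 at an unadjusted p under 0.05. In ML1 late 4 of 7 fell, Kdr at -1.15, Cdh5 at -1.06, Pecam1 at -1.02 and Tek at -0.93. In HL60 ch+ 1 of 7 was higher than in HL60 ch-, Cdh5 at 1.22 (limma adjusted p 0.0573), and in ML1 Cdh5 was at -0.22 (limma adjusted p 0.844). Cdh5 was most abundant and Vwf lowest at 3.84. The part of these lists was not tested.

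How alike the members were over the 21 libraries was described by Pearson's r, for each gene with the mean of the other members. It was 0.97 for Ibsp, 0.96 for Alpl, 0.95 for Ifitm5, 0.94 for Phex, 0.93 for Phospho1 and 0.91 for Smpd3. Dmp1 was at 0.78, Mepe at 0.32, Spp1 at -0.16 and Enpp1 at -0.92. The libraries share their groups and normalization, so these values describe group differences as much as anything finer. Outside the members, the genes most like their mean were Serpinf1 (0.98), Bmp3 (0.979), Cyfip2 and Cthrc1 (both 0.974), Sparc (0.972), Cpz, Col1a2 and Col1a1 (each 0.971), and Enpp6 and Ptgis (both 0.968). Serpinf1 encodes pigment epithelium-derived factor, whose loss causes osteogenesis imperfecta type VI, and Enpp6 encodes a choline phosphodiesterase. Their late changes were -2.13 and -2.03.

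The start regions of the 4 SIBLING members are shown because these neighbours differed in late disease. The sequences are RefSeq's for GRCm38.p6, found for 9 of the 10 members (not Smpd3), and each is the 200 bases before the RefSeq start, 5′ to 3′ on the plus strand. That start lies after the GENCODE start for Ibsp and within 10 bases of it for Spp1, Dmp1 and Mepe. Capitals mark 3 motifs on either strand, chosen after the sequences had been read: the core ACCACA bound by RUNX factors, the CCAAT box and the letters TTTAAATT. Where a motif lies on the minus strand its reverse complement is in capitals. No matches overlap here. Of 32851 promoters of the same length, 11.2% hold ACCACA, 29.3% CCAAT and 1.25% TTTAAATT. TATAAA, in 9.96% of them, was searched too and is left in lower case. The regions are chr5:104299087-104299286 (Ibsp), chr5:104434911-104435110 (Spp1), chr5:104202417-104202616 (Dmp1) and chr5:104325129-104325328 (Mepe).
Ibsp: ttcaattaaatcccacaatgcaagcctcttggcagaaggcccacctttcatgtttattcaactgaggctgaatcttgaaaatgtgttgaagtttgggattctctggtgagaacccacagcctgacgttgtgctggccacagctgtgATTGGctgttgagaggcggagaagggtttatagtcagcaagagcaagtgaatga
Spp1: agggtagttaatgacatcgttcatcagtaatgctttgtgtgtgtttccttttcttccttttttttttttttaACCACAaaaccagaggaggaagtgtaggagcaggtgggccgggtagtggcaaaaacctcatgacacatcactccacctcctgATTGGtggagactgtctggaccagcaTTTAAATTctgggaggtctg
Dmp1: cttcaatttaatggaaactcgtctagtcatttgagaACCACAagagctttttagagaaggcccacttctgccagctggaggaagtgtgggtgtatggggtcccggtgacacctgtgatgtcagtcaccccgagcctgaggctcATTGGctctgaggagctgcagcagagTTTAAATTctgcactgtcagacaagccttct
Mepe: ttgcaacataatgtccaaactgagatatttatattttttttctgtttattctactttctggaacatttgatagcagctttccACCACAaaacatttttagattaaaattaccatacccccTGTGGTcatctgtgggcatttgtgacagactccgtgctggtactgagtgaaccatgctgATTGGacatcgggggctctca
All 4 hold CCAAT on the minus strand, with the first printed base 54 bases before the start in Ibsp, 46 in Spp1, 57 in Dmp1 and 21 in Mepe. Spp1 and Dmp1 share TTTAAATT, 20 and 31 bases before the start, whereas Ibsp has TATAAA on the minus strand at 28 and Mepe at 173. ACCACA is at 128 in Spp1 and 164 in Dmp1, Mepe has it at 118 and on the minus strand at 80, and the Ibsp window does not hold it. Of the other 5 members with a sequence, Phospho1 holds CCAAT at 40 and Enpp1 holds ACCACA at 144. A match is a description of letters, not of a bound site.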

How the data were processed

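RNA was measured in 21 libraries of sorted mouse Nes-low cells, grouped by their labels. The deposited values are regularized log2 expression values that the authors made with STAR 2.5.1b, RSEM 1.2.29 and DESeq2 1.10.1 on mm10, per the labels. For the last of these the study's methods name a later version. The study's methods speak of log10, but the values run from -2.33 to 22.44, so they were read as log2. Per the labels 0 columns were left without a group. GENCODE M21 gave symbols for 99.38% of gene ids. Genes with a mean of at least 3.32 (10 normalized counts) were kept, 12976 in all. Differences were tested with limma 3.58.1 in R 4.3.3 (moderated t tests with a mean-variance trend, two-sided, Benjamini-Hochberg over all genes tested, threshold 0.1). Pooled comparisons used a fit of 4 groups and comparisons by line a fit of 7. Tables and figures were made with Python 3.11.15 and matplotlib 3.10.9. Gene lists were drawn up by known roles and markers, and members and lists were chosen with earlier results of these data known. The rule was to name all members, up to 4 genes per pathway list by size of call, the most abundant gene of each marker list and the 10 genes most like the members. Genes named beyond it, such as Sparcl1, Bglap, Runx2, Mylpf, Kdr, Acp5, Mmp9, Mmp13 and Atp6v0d2, were chosen after their values were seen. The level of 1 marker gene is not reported here. The alternatives were no filter, a filter at a mean of 5, quantile normalization, rescaling to library totals, no trend, sample weights, compared groups only, a threshold of 0.05, the fit by line and leaving out each library. The files give no depth per library. The median standard deviation over all 21 libraries, group differences included, was 0.59 for genes with means of 4 to 6 and 0.32 for means of 8 to 12.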

Additional observations from a re-analysis of the deposited data

Results flagged for a closer look

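The members in which the late libraries of HL60 and ML1 differed from each other by the limma test of their difference are listed as HL60 late minus ML1 late, in log2. They are Phospho1 at 2.88, Ifitm5 at 2.20, Alpl at 2.11, Smpd3 at 1.89, Dmp1 at 1.77, Ibsp at 1.25, Phex at 1.00, Spp1 at 0.62 and Enpp1 at -0.71.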

How the results depend on the processing

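The labels do not say whether replicates are separate mice, ctrl has 3 libraries, and the treatment field of ML1 late is at odds with its titles. The table gives no read totals, so what depth limits for weak genes such as Mepe is not known. The rescaling that leaves out the ribosomal RNA gene was chosen after seeing the data. No paired analysis was possible because the compared groups share no replicate numbers, although the study describes ch+ and ch- cells as coming from the same marrow. Of the members' values with all libraries in, 706 kept their direction and side of the threshold, 28 lost a call, 29 gained one and 7 turned. With 1 library left out these were 636, 23, 4 and 6. Of the counts of members called, 130 stayed within 1.5 times their value and 28 moved, or 110 and 19 with 1 library left out.

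For values that moved or turned the cause was not tested. Without a filter the count called was 0 for early ch- vs ctrl, 0 for ML1 ch- and for ML1 ch+ vs ctrl and 1 for HL60 ch+ vs ctrl, against 1, 1, 1 and 0 in the report. Quantile normalization gave 0 for ch- vs ctrl, 0 for ML1 ch+ vs ctrl, 1 for HL60 ch+ vs ctrl, 1 for ch+ vs ch- (report 2), 2 for HL60 ch+ vs HL60 ch- (report 1), and 0.01 for Spp1 in HL60 ch+ vs ctrl (report -0.20). A filter at a mean of 5 gave 2 for HL60 ch+ vs ctrl and 2 for HL60 ch+ vs HL60 ch-. The compared groups alone gave these same 2 counts, 5 for ch+ vs ctrl (report 0) and 7 for ch+ vs ch-, and the fit by line gave 3 and 4 for the last 2. With no trend and with sample weights the counts were 0 for ch- vs ctrl, ML1 ch- vs ctrl and ML1 ch+ vs ctrl, and weights gave -0.06 for Mepe in late vs ctrl (report 0.06). A threshold of 0.05 gave 0 for ch- vs ctrl and for ML1 ch- vs ctrl.

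Rescaling to library totals gave 0 for ch- vs ctrl and ML1 ch- vs ctrl, and 0.03 for Dmp1 in late vs ctrl (report -0.67), 0.51 for Dmp1 in late vs ch+ (report -0.11) and 0.56 for Mepe in ML1 late vs ctrl (report -0.25). Leaving the ribosomal RNA gene out of those totals gave 0 for ML1 ch- vs ctrl, 0.38 for Dmp1 in late vs ch+ and 0.33 for Mepe in ML1 late. Rescaling took the share of higher genes among calls from 53.9% to 70.3% in HL60 ch+ vs ctrl, from 60.5% to 32.5% in ML1 ch- vs ctrl, from 57.8% to 74.9% in HL60 ch+ vs HL60 ch-, from 55.1% to 78.7% in ML1 ch+ vs ML1 ch- and from 71.4% to 85.7% in HL60 ch- vs ML1 ch-.

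With 1 library left out the counts ran from 0 to 1 for ch- vs ctrl, HL60 ch+ vs ctrl and HL60 ch+ vs HL60 ch-, from 0 to 2 for ML1 ch+ vs ctrl, and were 0 throughout for ML1 ch- vs ctrl. Values ran from -0.20 to 0.30 for Mepe in late vs ctrl, from -0.56 to 0.18 for Mepe in ML1 late and from -0.34 to 0.19 for Dmp1 in late vs ch+.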
